A study of Homo sapiens with 4 samples.

Results

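The genes described here are 58 genes of mitosis and the spindle: the G2/M cyclins and their kinase, the transcription factors that switch them on, and the proteins of the kinetochore, the spindle, the condensed chromosome and cytokinesis. They were matched by name to a list, a rule that uses no measured value, though the list was drawn up with earlier results of these data known. All 58 were among the 60487 genes in each library and among the 18295 genes with at least 1 FPKM (fragments per kilobase of transcript, scaled to the mapped fragments of the library) in at least 1 library. The RNA came from HCC1937, an established human breast cancer line that is BRCA1 -/- by its label, carrying either an empty vector (vector cells) or wild-type BRCA1 (wtBRCA1 cells, labelled wild type). Each line received the solvent DMSO or OTX-015 (birabresib), which blocks the bromodomains of the BET family of chromatin readers. There was 1 library per group, 4 in all, and the labels do not give the dose, the time or the number of clones behind each line. Every group therefore shares the HCC1937 background, and a difference between the lines is a difference between 2 cell populations, not of BRCA1 alone.

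A cell enters mitosis when CDK1, bound to cyclin A or B, is switched on, and leaves it when the anaphase-promoting complex marks cyclin B and securin for destruction. In between, condensin packs the chromosomes, kinetochores tie them to spindle microtubules, and the spindle checkpoint holds anaphase back until every kinetochore is attached. The RNAs of these proteins are made mostly in G2 and mitosis, from promoters held silent earlier in the cycle by the DREAM complex and switched on by MuvB with B-MYB and FOXM1, so their level in a culture follows how many of its cells are dividing. Many of these promoters hold a cell cycle genes homology region (CHR), with the letters TTTGAA or TTTAAA, and CCAAT boxes bound by NF-Y.

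The label of an epithelial breast line was checked first. All 6 epithelial markers were present in every library, though 4 of them moved. EPCAM lay between 377 and 443 FPKM and CLDN4 did not pass either test. The adhesion protein CDH1 rose under OTX-015 (101 and 242 FPKM in vector cells, 105 and 274 FPKM in wtBRCA1 cells, DMSO first). The keratin KRT8 rose under OTX-015 and fell in wtBRCA1 cells (8160 and 23339 FPKM in vector, 3186 and 4476 FPKM in wtBRCA1 cells). KRT18 fell in wtBRCA1 cells by 2.12 log2, and KRT7 fell in both comparisons, by 0.76 log2 under OTX-015 and 0.67 in wtBRCA1 cells. These calls are by the limma test described below, and their part in the members' values was not tested. Of other cell types, 5 of 7 fibroblast and 3 of 5 endothelial markers were at 0 in all 4 libraries. The fibroblast list summed to between 2.11 and 9.78 FPKM and the endothelial list to between 0.67 and 7.03 FPKM. The leukocyte list summed to 16.2 and 24.8 FPKM in vector cells under DMSO and OTX-015 and to 32.9 and 50.2 FPKM in wtBRCA1 cells, mostly CD68, with PTPRC at 0.225 FPKM or below and CD3E at 0. CD14 of that list rose in wtBRCA1 cells, from 0.109 and 0 FPKM in vector cells to 9.51 and 5.62 FPKM, and its part in the line differences was not tested. BRCA1 itself measured 37.2 and 40.8 FPKM in vector cells under DMSO and OTX-015, and 171 and 2712 FPKM in wtBRCA1 cells, so both wtBRCA1 libraries lay above both vector libraries, but far apart from each other. The FPKM values summed to 909314 and 962378 in the DMSO libraries of vector and wtBRCA1 cells and to 1496107 and 1477103 under OTX-015. The 10 highest genes held 17.4% and 15.3% of those sums under DMSO and 39.2% and 33.8% under OTX-015. The part of this imbalance in the values below was not tested, apart from the rescaled values given beside them. Read depth is unknown.

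Promoter sequences are shown for 6 members, because the CHR and CCAAT letters are what most of these genes share. RefSeq promoters (GRCh38.p14, 250 bases before to 50 after each start) were matched by symbol for 50 of the 58 members, 64 promoters in all. NDC80 (chr18:2571307-2571559, plus strand), SMC2 (chr9:104094059-104094311, plus strand) and TOP2A (chr17:40417897-40418146, minus strand) are shown since their RNA passed the test for OTX-015. FOXM1 and UBE2C, which also passed, are among the 8 members without an entry, with AURKA, BUB3, TTK, BIRC5, TPX2 and RACGAP1. CCNB1 (chr5:69166900-69167149), CCNB2 (chr15:59104896-59105145) and PLK1 (chr16:23678639-23678888), all on the plus strand, are shown for comparison and were chosen after their values were seen. Each runs 5′ to 3′ over the 250 bases before the start, with 3 bases more where the motif crosses the start. Capitals mark a CHR on either strand (TTTGAA, read TTCAAA on the other strand, or TTTAAA) and a CCAAT box on either strand (CCAAT or ATTGG), and no CHR overlaps a CCAAT in them.
NDC80: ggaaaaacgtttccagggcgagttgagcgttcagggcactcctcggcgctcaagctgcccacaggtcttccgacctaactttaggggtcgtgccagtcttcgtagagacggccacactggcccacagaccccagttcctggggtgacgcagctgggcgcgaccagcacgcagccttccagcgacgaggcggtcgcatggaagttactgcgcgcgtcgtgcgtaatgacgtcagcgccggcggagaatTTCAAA
SMC2: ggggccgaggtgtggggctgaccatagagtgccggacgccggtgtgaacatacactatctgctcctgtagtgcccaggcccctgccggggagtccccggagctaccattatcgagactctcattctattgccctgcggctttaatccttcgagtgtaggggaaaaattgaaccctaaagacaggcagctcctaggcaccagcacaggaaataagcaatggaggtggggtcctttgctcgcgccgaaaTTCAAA
TOP2A: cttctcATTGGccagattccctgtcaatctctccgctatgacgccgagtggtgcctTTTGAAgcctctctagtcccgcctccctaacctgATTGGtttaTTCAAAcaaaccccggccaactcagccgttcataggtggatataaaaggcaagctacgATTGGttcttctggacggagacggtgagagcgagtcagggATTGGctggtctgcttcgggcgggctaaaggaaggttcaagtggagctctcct
CCNB1: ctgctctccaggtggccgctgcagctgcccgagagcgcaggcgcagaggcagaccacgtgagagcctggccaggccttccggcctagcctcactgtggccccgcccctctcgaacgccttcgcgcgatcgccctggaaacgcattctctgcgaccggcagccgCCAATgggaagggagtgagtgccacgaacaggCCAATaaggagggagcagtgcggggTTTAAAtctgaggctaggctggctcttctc
CCNB2: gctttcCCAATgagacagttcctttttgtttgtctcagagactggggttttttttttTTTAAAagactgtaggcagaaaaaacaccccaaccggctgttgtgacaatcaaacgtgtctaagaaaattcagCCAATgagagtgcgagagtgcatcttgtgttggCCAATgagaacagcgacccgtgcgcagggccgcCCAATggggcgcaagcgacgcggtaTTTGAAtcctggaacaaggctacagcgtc
PLK1: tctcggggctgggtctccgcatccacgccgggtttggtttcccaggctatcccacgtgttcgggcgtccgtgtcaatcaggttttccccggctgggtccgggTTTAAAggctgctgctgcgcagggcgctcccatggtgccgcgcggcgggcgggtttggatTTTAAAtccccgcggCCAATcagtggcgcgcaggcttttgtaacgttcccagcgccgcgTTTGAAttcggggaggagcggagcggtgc

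A CHR was found in 43 of the 50 members with a promoter (86.0%), against 27.9% of 27305 genes with a promoter of that length and 21.0% of 10083 that were also among the genes analysed. In 31 of them it began within the 100 bases before the start. A CCAAT box was found in 39 members (78.0%, against 39.7% and 43.2%), at 2 or more places in 25 (50%, against 12.9% and 16.2%), and in the same promoter as a CHR in 32 (64.0%, against 11.2% and 8.9%). CCNB1 and CCNB2 above hold CCAAT boxes upstream of a CHR, while NDC80 and SMC2 hold a CHR at the start itself and no CCAAT. A match is a description of letters and not of binding, and the list was chosen for cell cycle function. The median log2 difference under OTX-015, described below, was -0.18 in vector and -0.31 in wtBRCA1 cells for the 43 with a CHR, and -0.37 and -0.14 for the 7 without; the 8 members without an entry, FOXM1 and UBE2C among them, are in neither.

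The mitosis genes were well expressed. FPKM ran from 3.15 for the kinesin KIF14 in vector cells under OTX-015 to 359 for the condensin subunit SMC4 in wtBRCA1 cells under OTX-015. By mean level the members lay between the 42.1 and the 97.4 percentile of the genes analysed, with a median of 83.0. The shares of all genes given below were not matched to this level.

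**Figure D1:**
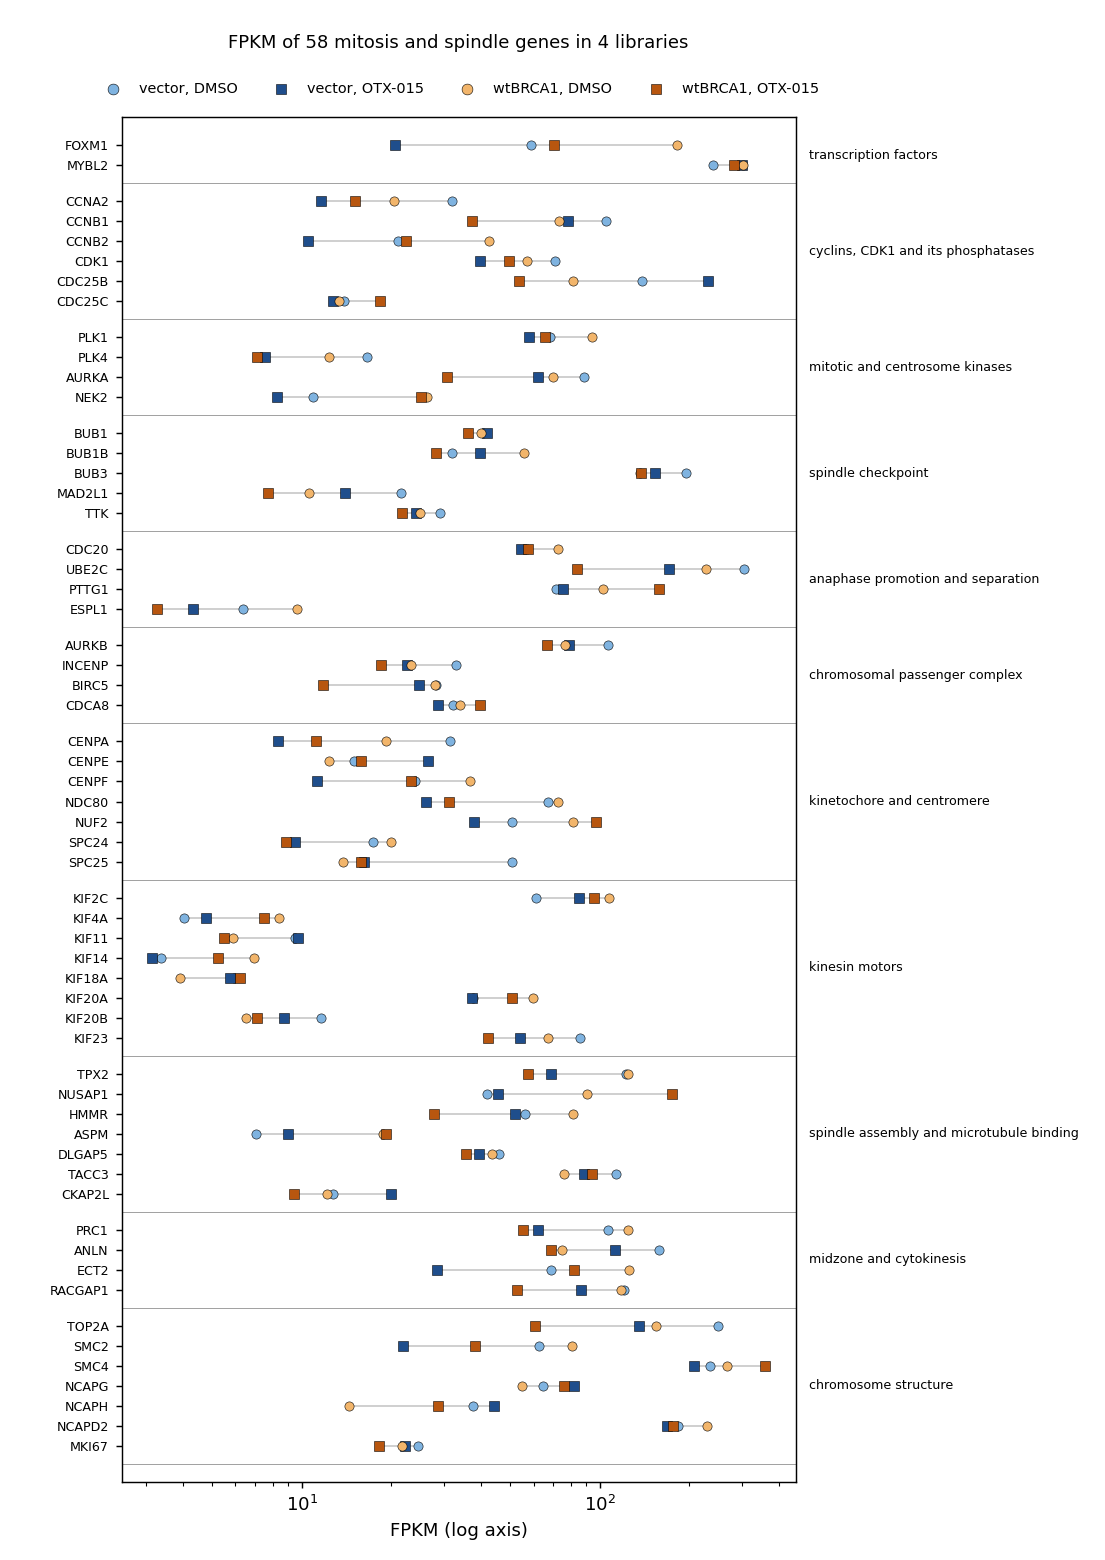
FPKM (log axis) of each of the 58 genes in the 4 libraries, 1 point per library, grouped by role; grey lines join the lowest and highest value. FOXM1, NDC80, SMC2, TOP2A and UBE2C have each OTX-015 square to the left of the DMSO circle of the same line, while MYBL2, BUB1 and MKI67 differ little between libraries.

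Under OTX-015, the typical mitosis gene was lower in both lines, by a modest amount, and a small group was lower by more than 2-fold on average over the lines. FOXM1, NDC80, SMC2, UBE2C and TOP2A fell; no member rose. The question of this comparison is how BET inhibition changes the transcriptome of the line with and without BRCA1. Values were compared as log2(FPKM + 1), which understates changes of low genes, and tested with limma across all 4 libraries with line and treatment as terms and Benjamini-Hochberg adjustment over all 18295 genes at a threshold of 0.05. With 1 library per group this test has 1 residual degree of freedom per gene. It asks whether the mean difference over the 2 lines departs from 0. The spread it is set against comes from how far the lines disagree, pooled over genes of similar level, not from repeated cultures. In bulk RNA, fewer dividing cells and less of these RNAs per dividing cell cannot be told apart.

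Of the 58 members, 5 fell (8.62%), 0 rose and 53 did not pass limma's test. Over all genes 2.67% fell, 3.66% rose and 6.32% passed in either direction. At an unadjusted p under 0.05 the test gave 18 members, all lower (31%), against 22.8% of all genes in either direction and 10.2% lower. No library can be left out of this model, and with line dropped as a term no member passed, with all 4 libraries or with any 1 of them left out. The median difference of the members was -0.35 in vector cells and -0.33 in wtBRCA1 cells, against 0.00 and 0.00 for all genes. Under OTX-015, 44 members were lower by any amount in vector cells (75.9%; all genes 46.2%) and 43 in wtBRCA1 cells (74.1%; all genes 47.5%). In both lines 35 were lower (60.3%; all genes 30.2%) and 6 were higher (10.3%; all genes 33.0%), namely PTTG1, CENPE, NUSAP1, ASPM, NCAPG and NCAPH.

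The scale of these differences depended on how the libraries were brought together. When each library was divided by its FPKM sum, the median of all genes moved to -0.49 in vector and -0.45 in wtBRCA1 cells, and that of the members to -1.02 and -0.90, which is -0.53 and -0.45 relative to all genes. On that scale 56 and 54 members were lower than 0, and 48 and 45 lay below the median of all genes. Of the 58 members 17 fell, while 1521 of 18295 genes passed in either direction. The share of all genes that fell on that scale was not computed, so the 17 have no like share beside them. None of the 6 named above was higher in both lines. The direction of the members as a group held under every rescaling tried, and the median difference of each of the 11 role groups stayed below 0 in both lines under median-of-ratios, quantile and sum scaling.

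**Figure D2:**
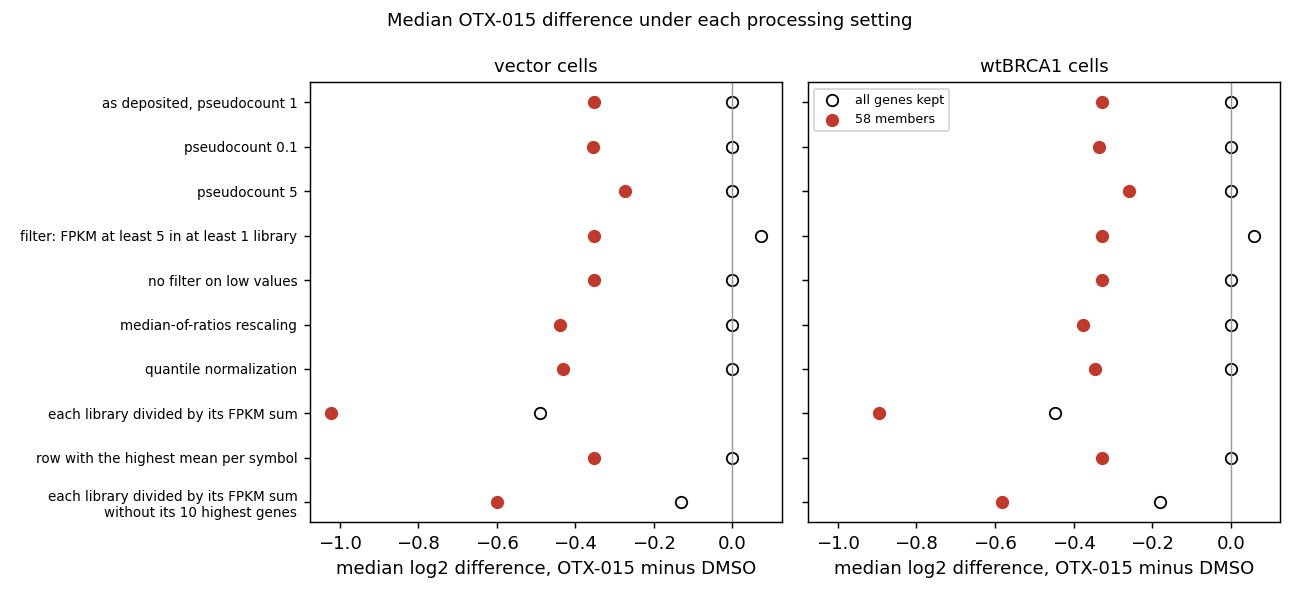
Median log2 difference (OTX-015 minus DMSO) of the 58 genes (red) and of all genes analysed (open) in vector cells (left) and wtBRCA1 cells (right) under each way of filtering and scaling. Red points lie left of the open points in every row; dividing by the FPKM sum shifts both, to -1.02 against -0.49 in vector cells and -0.90 against -0.45 in wtBRCA1 cells.

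A difference of at least 1 log2 downward, between a pair of libraries and with no test, was seen for 9 members in vector cells (15.5%; all genes 12.7%) and 13 in wtBRCA1 cells (22.4%; all genes 13.4%). FOXM1, NDC80 and SMC2 had it in both lines, 3 of 58 against 4.43% of all genes. CCNA2, PLK4, CENPA, CENPF, SPC25 and ECT2 reached it in vector but not wtBRCA1 cells (10.3%; all genes 8.28%), and AURKA, UBE2C, ESPL1, BIRC5, SPC24, TPX2, HMMR, PRC1, RACGAP1 and TOP2A in wtBRCA1 but not vector cells (17.2%; all genes 8.98%). Several of them lay near 1 log2, such as PLK4 (-1.04 and -0.73) and TPX2 (-0.83 and -1.10), and whether the lines differ for these genes was not tested. No member was higher by that much in either line (13.0% of all genes in each). On the scale as deposited, a further 24 members, among them BUB1, CDC20, AURKB, KIF20A, ANLN and MKI67, lay within 0.5 log2 of 0 in both lines. The share of all genes within that range was not computed. After division by the FPKM sum, each of those named was lower by more than 0.5 log2 in both lines, but not all of the 24 were. AURKB was then at -1.14 and -0.81 and MKI67 at -0.83 and -0.83, while NCAPG was at -0.36 and -0.14. SMC4 was at -0.90 and -0.19 in vector and wtBRCA1 cells. On that scale the median of all genes was itself -0.49 and -0.45. Across the 58 genes the differences in the lines, which share no library, correlated with Pearson r at 0.47 and Spearman rho at 0.53, against 0.42 and 0.44 across all 18295 genes; genes are not independent replicates.

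**Figure D3:**
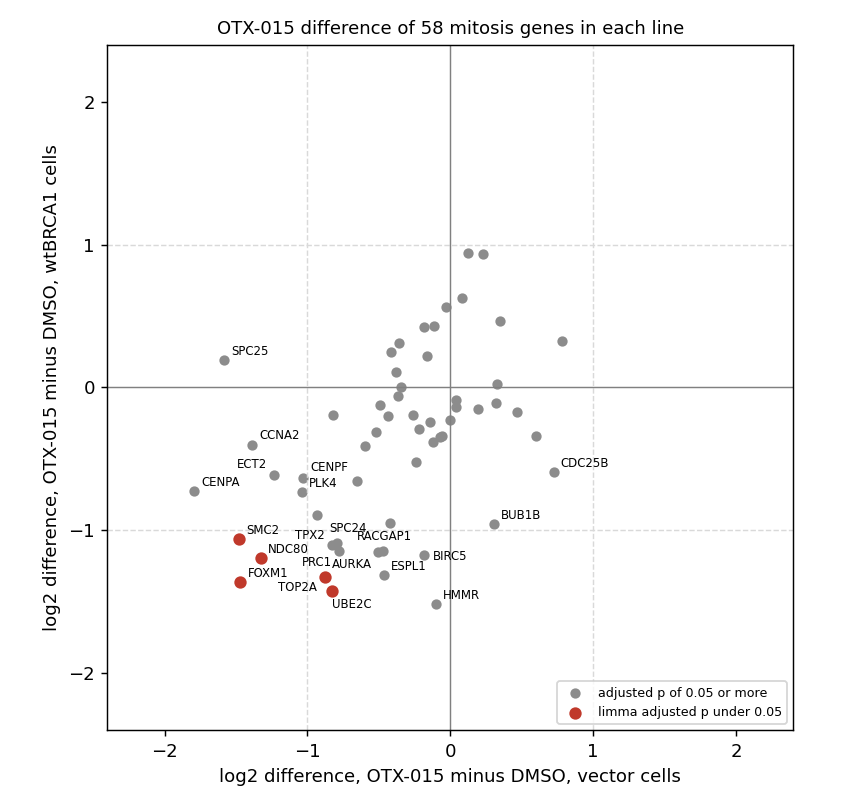
Log2 difference, OTX-015 minus DMSO, of each of the 58 genes in vector cells (x axis) and wtBRCA1 cells (y axis); red points have a limma adjusted p under 0.05 and dashed lines mark 1 log2. Most points lie in the lower left, FOXM1, NDC80 and SMC2 lie beyond 1 log2 in both lines, and SPC25 lies far left at -1.58 and 0.19.

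The transcription factors differed from each other. FOXM1, the forkhead factor that switches on G2 and mitotic genes, measured 58.8 FPKM in untreated and 20.6 FPKM in treated vector cells, and 182 and 70.2 FPKM in wtBRCA1 cells. It was lower under OTX-015 in each line and higher in wtBRCA1 cells under each treatment, so that treated wtBRCA1 cells and untreated vector cells overlapped. Its OTX-015 difference was -1.42 ± 0.29 log2 (SE, limma adjusted p = 0.0246). It kept this call in 8 of 16 alternative analyses, with adjusted p between 0.0128 and 0.86. MYBL2, the B-MYB factor that acts with MuvB at the same promoters, measured between 239.6 and 303 FPKM with differences of 0.32 and -0.11 log2. The ratio of FOXM1 to MYBL2 within a library was 0.245 and 0.0687 in vector cells under DMSO and OTX-015 and 0.601 and 0.249 in wtBRCA1 cells.

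The FOXM1 value shares its locus with other genes. FOXM1 lies on the minus strand of chromosome 12. Its locus as deposited (hg38, chr12:2794953-2941140) also holds 8 other genes, 6 of them at 10 FPKM or more. The highest is ITFG2, which overlaps FOXM1 on the opposite strand by 2111 bases. ITFG2 measured 412 and 185 FPKM in vector cells and 938 and 413 FPKM in wtBRCA1 cells, DMSO first, with OTX-015 differences of -1.15 and -1.18 and line differences of 1.19 and 1.15 log2. Both genes thus had the same 4-library pattern, ITFG2 at the higher level. FOXM1 per ITFG2 was 0.143 and 0.111 in vector and 0.194 and 0.170 in wtBRCA1 cells. No source used here says whether the authors' quantification used strand. The part of ITFG2 and of the other genes of the locus in the FOXM1 value was not tested. In all, 17 of the 58 members share a locus with a gene at 10 FPKM or more; FOXM1 is the only member of those 17 that passed for OTX-015, and the other 4 calls and medians of -0.37 and -0.29 came from the 41 members without such a neighbour.

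Among the cyclins, CDK1 and its phosphatases, 0 of 6 passed for OTX-015, with medians of -0.62 and -0.50 log2. CCNB2, the other B cyclin, had the largest mean difference. It measured 21.1 and 10.5 FPKM in vector cells and 42.5 and 22.4 FPKM in wtBRCA1 cells under DMSO and OTX-015, lower under OTX-015 by 0.93 and 0.89 log2 (limma adjusted p = 0.135). CCNB1, the main B cyclin, and CCNA2, which works from S phase into early mitosis, were lower in both lines too, CCNB1 more in wtBRCA1 (-0.42 and -0.95) and CCNA2 more in vector cells (-1.39 and -0.40). CDC25C, which activates CDK1 at mitotic entry, stayed between 12.7 and 18.4 FPKM.

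The mitotic and centrosome kinases were all lower in both lines, and 0 of 4 passed for OTX-015. PLK4, which starts centriole duplication, measured 16.6 and 7.54 FPKM in vector cells and 12.4 and 7.06 FPKM in wtBRCA1 cells. Both OTX-015 libraries lay below both DMSO libraries, with a mean difference of -0.89 ± 0.35 log2 (SE, limma adjusted p = 0.171). AURKA, the spindle pole kinase, differed by -0.51 and -1.15, and PLK1, which acts from mitotic entry to cytokinesis, by -0.24 and -0.52 log2.

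The spindle checkpoint genes had medians of -0.26 and -0.19 log2, and 0 of 5 passed. MAD2L1, which holds CDC20 inactive, had the largest mean difference: it measured 21.6 and 14.0 FPKM in vector cells and 10.6 and 7.69 FPKM in wtBRCA1 cells (limma adjusted p = 0.438). Both wtBRCA1 values lay below both vector values. The checkpoint kinases BUB1 (0.04 and -0.14) and TTK (-0.26 and -0.19) and the BUB1 partner BUB3 (-0.35 and 0.01) differed less.

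Among the genes of anaphase promotion, UBE2C fell and the other 3 did not pass. UBE2C, the ubiquitin-conjugating enzyme of the anaphase-promoting complex, measured 305 and 171 FPKM in vector cells and 227 and 83.9 FPKM in wtBRCA1 cells under DMSO and OTX-015. Both OTX-015 values lay below both DMSO values, and the difference was -1.13 ± 0.27 log2 (SE, limma adjusted p = 0.0383; 0.0178 to 0.761 over the 16 alternatives, 4 of which kept the call). CDC20, which activates the same complex, differed by only -0.06 and -0.34 log2, so UBE2C per CDC20 within a library went from 5.36 to 3.14 in vector and from 3.13 to 1.46 in wtBRCA1 cells. ESPL1 (separase), which cuts cohesin, differed by -0.47 and -1.31, and PTTG1 (securin), which holds separase inactive, by 0.08 and 0.62 log2.

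In the chromosomal passenger complex, which corrects kinetochore attachments, 0 of 4 members passed. BIRC5 (survivin) measured 28.2 and 24.7 FPKM in vector cells and 27.9 and 11.8 FPKM in wtBRCA1 cells, so the treated wtBRCA1 library stood apart from the other 3, which lay close together (limma adjusted p = 0.314). The kinase AURKB and its scaffold INCENP kept their proportion in all 4 libraries, 3.25 and 3.49 in vector and 3.30 and 3.60 in wtBRCA1 cells.

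The kinetochore and centromere genes had the lowest median in vector cells, -1.03 log2, and -0.63 in wtBRCA1 cells, and 1 of 7 fell. NDC80, the microtubule-binding subunit that gives the NDC80 complex its name, measured 67.2 and 26.2 FPKM in vector cells and 72.5 and 31.1 FPKM in wtBRCA1 cells. The lines were close under each treatment, and the OTX-015 difference was -1.26 ± 0.31 log2 (SE, limma adjusted p = 0.0415; 0.0206 to 0.676 over the 16 alternatives, 4 of which kept the call). Its partner NUF2 did not move with it, at -0.42 and 0.25 log2, and NDC80 per NUF2 was 1.32 and 0.691 in vector and 0.888 and 0.320 in wtBRCA1 cells. CENPA, the histone H3 variant that marks centromeres, measured 31.4 and 8.36 FPKM in vector cells and 19.2 and 11.2 FPKM in wtBRCA1 cells (-1.26 ± 0.38 log2, SE, limma adjusted p = 0.0816). Both treated libraries were below both DMSO libraries, with the wider gap in vector cells. CENPE, the kinetochore motor, was higher by 0.79 and 0.32 log2.

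The kinesin motors, which slide or depolymerise spindle microtubules, had medians of -0.02 and -0.16 log2, and 0 of 8 passed. KIF23, the motor of the central spindle, had the largest mean difference. It measured 85.6 and 54.0 FPKM in vector cells and 67.0 and 42.2 FPKM in wtBRCA1 cells, lower by 0.65 log2 in each line (limma adjusted p = 0.224). Its partner in centralspindlin, RACGAP1, differed by -0.47 and -1.14. KIF11, which pushes the spindle poles apart, differed by 0.04 and -0.09 log2. The highest differences were 0.47 in vector cells, for KIF2C, and 0.56 in wtBRCA1 cells, for KIF18A, both of which act at microtubule ends.

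Among the spindle assembly genes, 0 of 7 passed for OTX-015, and the group ran in both directions. TPX2, which activates AURKA and seeds microtubules, measured 123 and 68.7 FPKM in vector cells and 124 and 57.4 FPKM in wtBRCA1 cells. The 2 DMSO libraries were nearly equal and both treated ones lower (-0.96 ± 0.28 log2, SE, limma adjusted p = 0.0753). NUSAP1, which bundles microtubules near chromosomes, went the other way, by 0.13 and 0.94 log2 (limma adjusted p = 0.358).

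The midzone and cytokinesis genes were all lower in both lines, with medians of -0.64 and -0.88 log2, and 0 of 4 passed. PRC1, which cross-links the antiparallel microtubules of the midzone, measured 107 and 61.9 FPKM in vector cells and 124 and 55.4 FPKM in wtBRCA1 cells (-0.96 ± 0.29 log2, SE, limma adjusted p = 0.0804). Its antisense neighbour PRC1-AS1, which spans 22280 bases of overlap, had 204 and 123 FPKM and 248 and 77.4 FPKM in the same libraries; its part in the PRC1 value was not tested. ANLN, the anillin scaffold of the contractile ring, was lower by only 0.49 and 0.12 log2.

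In the chromosome structure group, SMC2 and TOP2A fell and the other 5 did not pass. SMC2, which forms the ATPase core of condensin with SMC4, measured 62.7 and 21.8 FPKM in vector cells and 80.8 and 38.1 FPKM in wtBRCA1 cells (-1.27 ± 0.31 log2, SE, limma adjusted p = 0.0433; 0.0212 to 0.68 over the 16 alternatives, 4 of which kept the call). Both treated values lay below both DMSO values. SMC4 did not follow, at -0.18 and 0.42 log2. SMC2 per SMC4 was 0.267 and 0.302 in the DMSO libraries of vector and wtBRCA1 cells and 0.106 in both OTX-015 libraries. On the opposite strand TRIM59 overlaps SMC4 by 2518 bases. TRIM59 measured 208 and 218 FPKM in vector and 382 and 473 FPKM in wtBRCA1 cells, DMSO first. Its part in the SMC4 value was not tested. TOP2A, the topoisomerase that untangles sister chromatids, measured 249.9 and 135 FPKM in vector cells and 154 and 60.9 FPKM in wtBRCA1 cells (-1.10 ± 0.27 log2, SE, limma adjusted p = 0.0439; 0.02 to 0.807 over the 16 alternatives, 4 of which kept the call). Both treated libraries lay below both DMSO libraries, though treated vector cells (135 FPKM) came close to untreated wtBRCA1 cells (154 FPKM). MKI67, the coat protein of mitotic chromosomes and a common marker of dividing cells, differed by only -0.14 and -0.24 log2. TOP2A per MKI67 was 10.1 and 6.10 in vector and 7.08 and 3.34 in wtBRCA1 cells. The condensin I subunits NCAPG and NCAPH were higher in both lines, by 0.35 and 0.46 and by 0.23 and 0.94 log2.

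**Figure D4:**
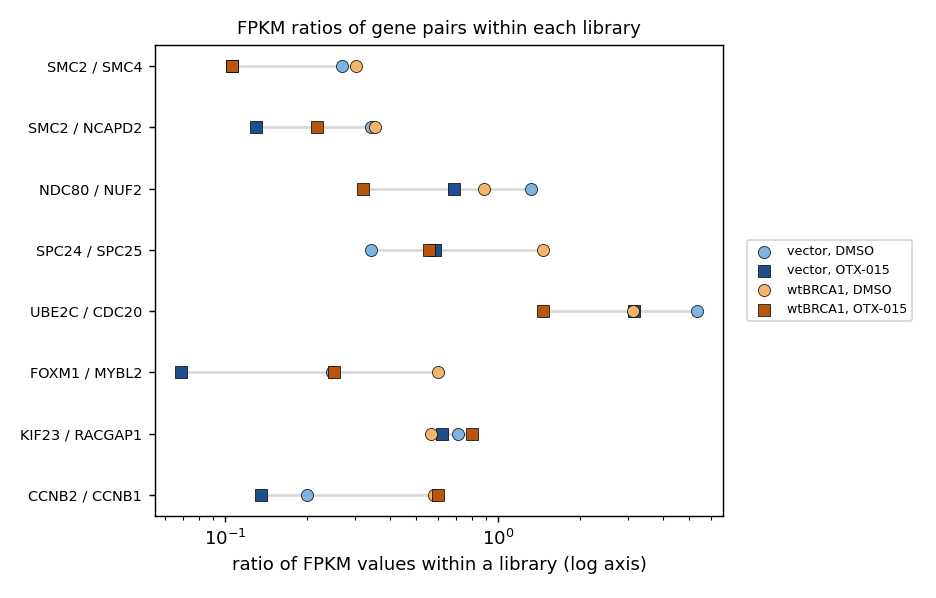
Ratio of FPKM values of 8 gene pairs within each library (log axis), 1 point per library. SMC2 per SMC4 and NDC80 per NUF2 are lower in the OTX-015 library (squares) than in the DMSO library (circles) of the same line, while SPC24 per SPC25 moves up in vector cells (0.342 to 0.588) and down in wtBRCA1 cells (1.45 to 0.560).

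Between the lines, 5 mitosis genes passed the test, a share (8.62%) close to that of all genes (8.29%). FOXM1, NUSAP1, NEK2 and ECT2 rose in wtBRCA1 cells relative to vector cells and CDC25B fell. Of 58 members 4 rose (6.9%; all genes 4.88%), 1 fell (1.72%; all genes 3.41%) and 53 did not pass limma's test. The medians were -0.03 under DMSO and -0.09 under OTX-015, against 0.04 and 0.00 for all genes. In wtBRCA1 cells 20 members were higher under both treatments (34.5%; all genes 34.5%) and 25 were lower under both (43.1%; all genes 29.7%). The lines were at least 1 log2 apart for 7 members under DMSO (12.1%; all genes 26.5%) and for 13 under OTX-015 (22.4%; all genes 27.7%). Most members lay above the typical level of all genes, and these shares were not matched for level. These comparisons use the same 4 libraries as those of OTX-015.

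FOXM1 had the highest line difference of the members, 1.67 ± 0.29 log2 (SE, limma adjusted p = 0.00903; kept in 10 of 16 alternatives), and the ITFG2 values given above bear on it equally. NUSAP1 measured 41.8 and 45.7 FPKM in vector cells under DMSO and OTX-015 and 90.5 and 175 FPKM in wtBRCA1 cells, a line difference of 1.50 ± 0.32 (SE, limma adjusted p = 0.0189; kept in 7). Both wtBRCA1 libraries were above both vector libraries, the treated one highest. NEK2, which splits the centrosomes at mitotic entry, was at 10.9 and 8.25 FPKM in vector and 26.3 and 25.2 FPKM in wtBRCA1 cells (1.35 ± 0.34, SE, limma adjusted p = 0.0409; kept in 2), with little difference between treatments.

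ECT2, which switches on RhoA for cytokinesis, was at 68.4 and 28.5 FPKM in vector and 126 and 81.8 FPKM in wtBRCA1 cells (1.18 ± 0.31, SE, limma adjusted p = 0.0447; kept in 2). Each treatment's wtBRCA1 library was the higher, and under OTX-015 ECT2 was lower by 1.23 and 0.61 log2. CDC25B, a phosphatase that starts CDK1 activation at the centrosome, was at 139 and 230.2 FPKM in vector and 81.5 and 53.7 FPKM in wtBRCA1 cells (-1.42 ± 0.34, SE, limma adjusted p = 0.0342; kept in 3). Both vector libraries were above both wtBRCA1 libraries. Of members short of the threshold, ASPM, the spindle pole protein, was higher in wtBRCA1 cells by 1.31 and 1.01 log2, and NCAPH was lower by 1.32 and 0.61.

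**Figure D5:**
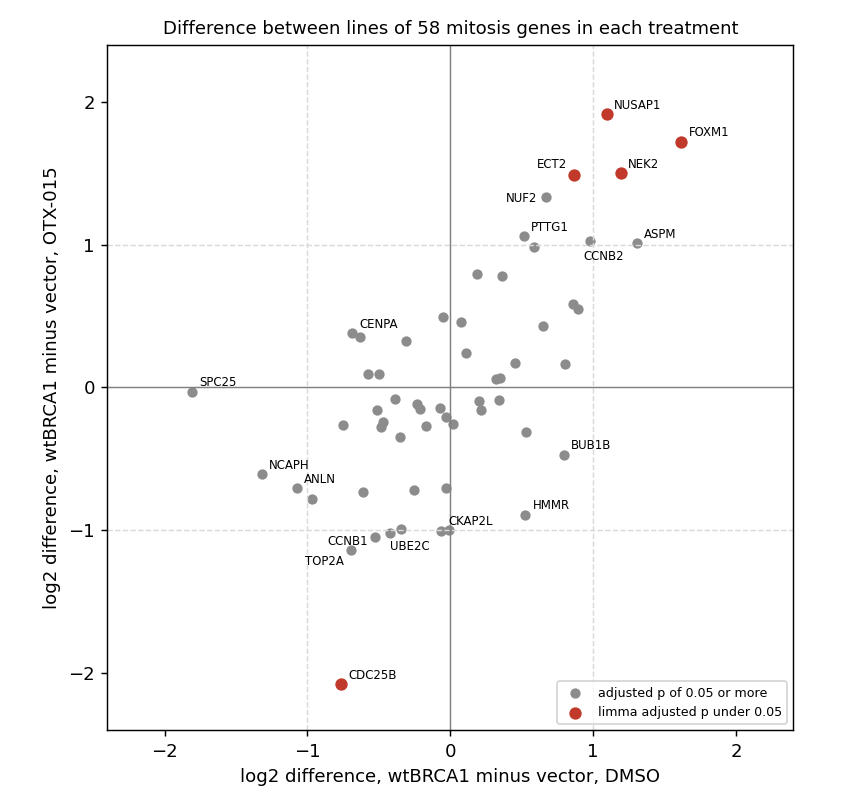
Log2 difference, wtBRCA1 minus vector cells, of each of the 58 genes under DMSO (x axis) and OTX-015 (y axis); red points have a limma adjusted p under 0.05 and dashed lines mark 1 log2. Points lie on both sides of 0; FOXM1, NUSAP1, NEK2 and ECT2 are at the upper right, and CDC25B is lowest at -0.76 and -2.08.

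A few members responded to OTX-015 differently in the lines, 5 of 58 by at least 1 log2 (8.62%; all genes 27.2%, not matched for level). With 1 library per group this difference allows no test. SPC25, a subunit of the NDC80 complex, measured 50.6 and 16.2 FPKM in vector cells and 13.8 and 15.9 FPKM in wtBRCA1 cells, so untreated vector cells stood apart from 3 similar libraries. Its responses were -1.58 and 0.19 log2. Its locus also holds CERS6-AS1 (13.8 and 20.0 FPKM in vector, 277 and 316 FPKM in wtBRCA1 cells) on the same strand with 0 bases of overlap; its part was not tested. SPC24, the direct partner of SPC25, was lower in both lines (-0.80 and -1.09).

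HMMR, a spindle pole protein, measured 56.1 and 52.2 FPKM in vector cells and 81.1 and 27.7 FPKM in wtBRCA1 cells, responses of -0.10 and -1.52 log2. HMMR-AS1 overlaps HMMR by 8881 bases on the opposite strand. It measured 17.3 and 11.2 FPKM in vector and 11.2 and 15.7 FPKM in wtBRCA1 cells, and its part in the HMMR value was not tested. BUB1B, the checkpoint kinase homologue, measured 31.8 and 39.6 FPKM in vector and 55.9 and 28.3 FPKM in wtBRCA1 cells, responses of 0.31 and -0.96. For HMMR and BUB1B untreated wtBRCA1 cells had the highest and treated wtBRCA1 cells the lowest level. CDC25B responded by 0.72 and -0.59 and CENPA by -1.79 and -0.73 log2.

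Genes from other mitosis lists, which were also drawn up with earlier results known, had smaller medians. Over 112 such genes 3 fell (2.68%, against 2.67% of all genes), 0 rose and the medians were -0.20 and -0.18 log2 under OTX-015. Between the lines 2 rose and 1 fell, against 4.88% and 3.41% of all genes. The 3 that fell were SGO1, MIS18A and OIP5. SGO1 (shugoshin), which protects centromeric cohesin, measured 24.8 and 2.91 FPKM in vector and 25.0 and 9.28 FPKM in wtBRCA1 cells (-2.03 ± 0.41, SE, limma adjusted p = 0.0232). MIS18A and OIP5, both of the complex that readies centromeres for new CENPA, fell likewise. MIS18A measured 13.0 and 5.88 FPKM in vector and 38.3 and 2.47 FPKM in wtBRCA1 cells, OIP5 11.0 and 2.37 FPKM and 17.3 and 3.79 FPKM (-2.26 ± 0.53 and -1.89 ± 0.36, SE, limma adjusted p = 0.0374 and 0.0204). All 3 were lower under OTX-015 in each line. Of the 112 genes, KIF3A and KIF3B are not specific to mitosis.

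By list, the kinetochore and centromere genes outside the 58 had medians of -0.44 and -0.55 over 29 genes, from CENPH at 0.80 to MIS18A. The 13 cohesin genes had medians of -0.20 and -0.30, from SGO2 at 1.19 to SGO1. No gene passed for OTX-015 among 17 anaphase-promoting complex genes (medians 0.00 and -0.18; UBE2S 0.68, CDC26 -1.26), 12 DREAM and MuvB genes (-0.23 and -0.06; LIN52 0.76, RBL1 -0.63), 13 G2 entry genes (0.00 and 0.18; CKS2 0.78, CKS1B -0.90), 19 centrosome genes (-0.37 and -0.17; HAUS4 0.69, HAUS5 -0.97) and 9 other kinesin and condensin II genes (-0.22 and 0.02; KIF3A 0.73, KIF22 -1.11).

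Between the lines, the centromere proteins CENPN (1.65 log2, limma adjusted p = 0.00589) and CENPU (1.48, 0.0243) rose in wtBRCA1 cells. WEE1, the kinase that holds CDK1 inactive, fell: 49.1 and 32.5 FPKM in vector cells and 14.2 and 7.43 FPKM in wtBRCA1 cells (-1.85 ± 0.33, SE, limma adjusted p = 0.0101). The inhibitor WEE1 and the activator CDC25B of CDK1 were thus both lower in wtBRCA1 cells under each treatment. Related genes did not share this direction. PKMYT1 was higher in wtBRCA1 cells by 0.39 under DMSO and 0.69 log2 under OTX-015. CDC25A differed by 0.19 and -0.10 and CDC25C by -0.05 and 0.50.

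A pair of comparison lists set the mitosis genes beside the rest of the cell cycle. Of 40 DNA replication and S phase genes, 2 fell under OTX-015 (5%, against 2.67% of all genes) and 0 rose. Those that fell were MCM5 (-1.35) and POLE2 (-1.82, the lowest), while GINS4 was highest at 1.34. The medians were -0.04 and -0.06 log2. Between the lines 3 rose (CDT1, RFC4 and TK1) and 1 fell (RRM1), against 4.88% and 3.41% of all genes. Of 12 CDK inhibitors and G1 cyclins measured, 1 rose under OTX-015 (all genes 3.66%) and 0 fell. The gene that rose was CDKN1A (p21), which stops CDK activity and leads to DREAM assembly. It measured 6.93 and 107 FPKM in vector and 18.1 and 133 FPKM in wtBRCA1 cells (3.29 ± 0.35, SE, limma adjusted p = 0.00184), while CDKN2A was lowest at -1.06. CDKN2C rose in wtBRCA1 cells by 2.84 log2 (limma adjusted p = 0.00176), the only 1 of the 12 to pass between the lines (all genes 8.29%). The difference between the mitosis list and these lists was not tested.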

How the data were processed

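Poly(A)-selected RNA of 4 HCC1937 libraries was sequenced. The kit was directional, per the labels' protocols. The authors deposited FPKM values per gene, for which the submitters' processing notes name TopHat2, Cufflinks and hg38. Versions, annotation, strand setting and scaling between libraries are not given in the sources used here. The files hold no counts, so depth is unknown and no counting error can be given.

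Libraries were joined by gene identifier (60487 genes, 94.2% in GENCODE 29, used for strand and position). Short structural RNA (7510 rows) was left out, 68 symbols on several rows were summed, and the 18295 genes that reached an FPKM of 1 in any library were analysed as log2(FPKM + 1) with limma 3.58.1 (R 4.3.3): treatment and line as terms, mean-variance trend, Benjamini-Hochberg adjustment, threshold 0.05. Rose and fell refer to this test only. Pairs of libraries have no test and are given as differences, with counts at 1 log2 or more. Promoter sequences are RefSeq's (GRCh38.p14). The procedure was run on simulated data drawn from the same additive model, with normal noise at the SD of the fit. Every simulated response was the same in both lines, so that run does not cover responses that differ between them. Python 3.11.15, pandas 2.3.3, numpy 2.4.6 and matplotlib 3.10.9 were used.

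The members and gene lists were chosen with earlier results of these data known. Values in all 4 libraries are given, by rule, for members past the threshold, the member of each role with the largest mean OTX-015 difference, and the 5 with the largest difference of responses. Alternatives covered the pseudocount, the filter, scaling, rows per symbol, the variance model, the other factor, and each library left out. A scaling without the 10 highest genes and a restriction to members without a neighbour at 10 FPKM or more in the locus were chosen after seeing the data.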

Additional observations from a re-analysis of the deposited data

Results flagged for a closer look

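OTX-015 responses of opposite sign in the lines, at least 1 log2 apart, were seen for 3 members. With 1 library per group the difference was not tested. SPC25 differed by 1.78 log2 between the lines (-1.58 in vector and 0.19 in wtBRCA1 cells), CDC25B by -1.32 (0.72 and -0.59) and BUB1B by -1.26 (0.31 and -0.96). Dividing each library by its FPKM sum gave SPC25 -2.27 and -0.39, CDC25B 0.01 and -1.20, and BUB1B -0.39 and -1.56, so that SPC25 and BUB1B then had the same sign in both lines.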

How the results depend on the processing

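The direction of the members' median held under all settings run. Dividing each library by its FPKM sum moved the OTX-015 medians to -1.02 and -0.90 log2 in vector and wtBRCA1 cells. All other settings moved the 4 medians by less than 0.32 log2, the typical SD of a member in the limma fit. The number of members called varied more. For OTX-015 it was 5 of 58 in the analysis reported, where 1157 of 18295 genes passed in either direction. With a pseudocount of 0.1 (756 of 18295 genes) or 5 (453) it was 1. It was also 1 with an FPKM filter of 5 (522 of 12524) or median-of-ratios rescaling (592 of 18295). No member passed with no filter (81 of 24290 genes), quantile normalization (67 of 18295), no variance trend or the other factor left out. Dividing by the FPKM sum gave 17 (1521 of 18295 genes), and 9 when that sum left out the 10 highest genes (1272 of 18313). For the lines it was also 5 of 58, where 1516 of 18295 genes passed. With a pseudocount of 0.1 (1185 of 18295 genes) or 5 (861) it was 2. It was also 2 with the filter of 5 (828 of 12524) or median-of-ratios rescaling (1055 of 18295). A single member, 1, passed with no filter (503 of 24290 genes), quantile normalization (697 of 18295) or the FPKM sum (753 of 18295). With no trend or the other factor left out it was 0. Leaving out each library in turn, with the other factor left out and the lone library assumed to vary like the others, gave 0 member calls for either effect, and 0 calls over all genes. Without the other factor and with all libraries, 1 gene of 18295 passed for OTX-015 and 57 for the lines. Without the trend 4 and 173 passed. The calls depend on the additive model and the variance trend. The cause of the other changes was not tested. Medians of pairs of libraries have no value with a library left out. Line as a term already compares treated with untreated cells within each line; no pairing by replicate number was possible because each group has 1 library and the labels give no such numbers.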
